A study of Mus musculus with 6 samples.

Results

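The livers of 3 WT mice were described by their RNA levels alone, as the baseline of a study of Asgr1, the major subunit of the asialoglycoprotein receptor. A gene was included when the mean of its FPKM values (fragments scaled to exon length and to library size, a level per length) over the 3 WT livers was at least 1. Of the 55401 genes in the deposited table, 10189 met this limit, and 9359 of them were at 1 or above in each liver. The mice were wild type males on a C57/BL6 background, 13 weeks old, and were fasted overnight before the liver was taken. No transgene or treatment was applied to them. The other 3 libraries of the series, from Asgr1-/- livers, enter no value given here.

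The liver is built mainly of hepatocytes, which secrete most plasma proteins, clear drugs and other foreign compounds through cytochrome P450 enzymes, and during a fast burn fatty acids, make ketone bodies and release glucose. Other cells share the tissue. Kupffer cells are the resident macrophages, sinusoidal endothelial cells line the capillaries, stellate cells store vitamin A and cholangiocytes line the bile ducts. A whole-liver library mixes RNA of all of them, so a larger number of cells of a type and more RNA per cell cannot be told apart in these data. The replicates are 3 separately labelled livers. Values of 3 livers are given in the order WT liver 1, WT liver 2, WT liver 3.

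The libraries held 20137729, 21178121 and 20134006 counts assigned to genes, and the included genes took 98.7 to 98.9% of them. Counts differed between each pair of livers by far more than sampling noise (chi-square per degree of freedom from 31.4 to 53.8), so no library was a copy of another. The hepatocyte markers Alb, Apoa1, Ttr, Cps1 and Hnf4a were all present, at 27063.8, 8674.8 and 5430.95 FPKM on average for the first 3 and between 211.14 and 400.61 for Cps1 and between 88.84 and 137.65 for Hnf4a. The digestive enzyme genes of the pancreas in the marker list were at 0 counts, except Cela1, an elastase gene, at 11.76, 9.42 and 12.06 FPKM. WT liver 3 stood apart in the genes that varied most, and WT liver 2 held more ribosomal RNA, at 0.298% of counts against 0.0963 and 0.109%. Genes just inside the limit were Hltf, Siglec1 and Fntb, each with a mean of 1.00 FPKM, and those just outside were Fmr1, Arrb1 and Atp2b1, each with 0.997. One gene of those 3 inside, Siglec1, reached the limit through WT liver 3, with 0.23, 0.62 and 2.15 FPKM.

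A small number of secreted proteins dominated the transcriptome. Alb, the gene of serum albumin (chr5:90460897-90476602, plus strand, GRCm38), gave 26469.5, 29069.8 and 25652.0 FPKM, or 6.10% ± 0.504 (SD, n = 3) of the summed FPKM. Its level was close in the 3 livers, with the highest only 1.13 times the lowest. The next genes were the apolipoproteins, protein components of the lipoproteins that carry lipid in blood. Apoa2, of high-density lipoprotein, stood at 21889.7, 14004.9 and 13421.6 FPKM. Apoe, a ligand for hepatic uptake of remnant particles, stood at 18730, 15304.9 and 15197.7 FPKM. Apoa1, the main protein of high-density lipoprotein, stood at 11256.4, 6647.27 and 8120.75 FPKM. These apolipoproteins were highest in WT liver 1, and WT livers 2 and 3 were close to each other for Apoa2 and Apoe.

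The 25 genes of highest mean FPKM fell into few classes. Beside albumin and the apolipoproteins they included the transport proteins Ttr (thyroxine and retinol-binding protein), Rbp4 (retinol), Trf (iron), Gc (vitamin D) and Hp (free haemoglobin). Hp was among the steadiest, at 4602.71, 4296.15 and 4489.07 FPKM, whereas Trf was lower in WT liver 1, at 3218.01 against 4727.6 and 4873.94. The protease inhibitor gene Serpina3k was steady at 5404.47, 5110.74 and 5288.7 FPKM. Serpina1e, an alpha-1-antitrypsin gene, was higher in WT liver 3, with 2975.4, 3854.84 and 6168.93 FPKM, and was the only protein-coding gene of the 25 whose highest liver was at least 2 times the lowest (2.07 times). Its relative Serpina1c was steady, at 2630.05, 2544.81 and 2427.64 FPKM. Fabp1, which binds fatty acids inside the hepatocyte, stood at 9294.4, 6401.57 and 6826.68 FPKM, and Cyp2e1, the ethanol-inducible P450, at 4053.34, 3652.02 and 2742.31.

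**Figure D1:**
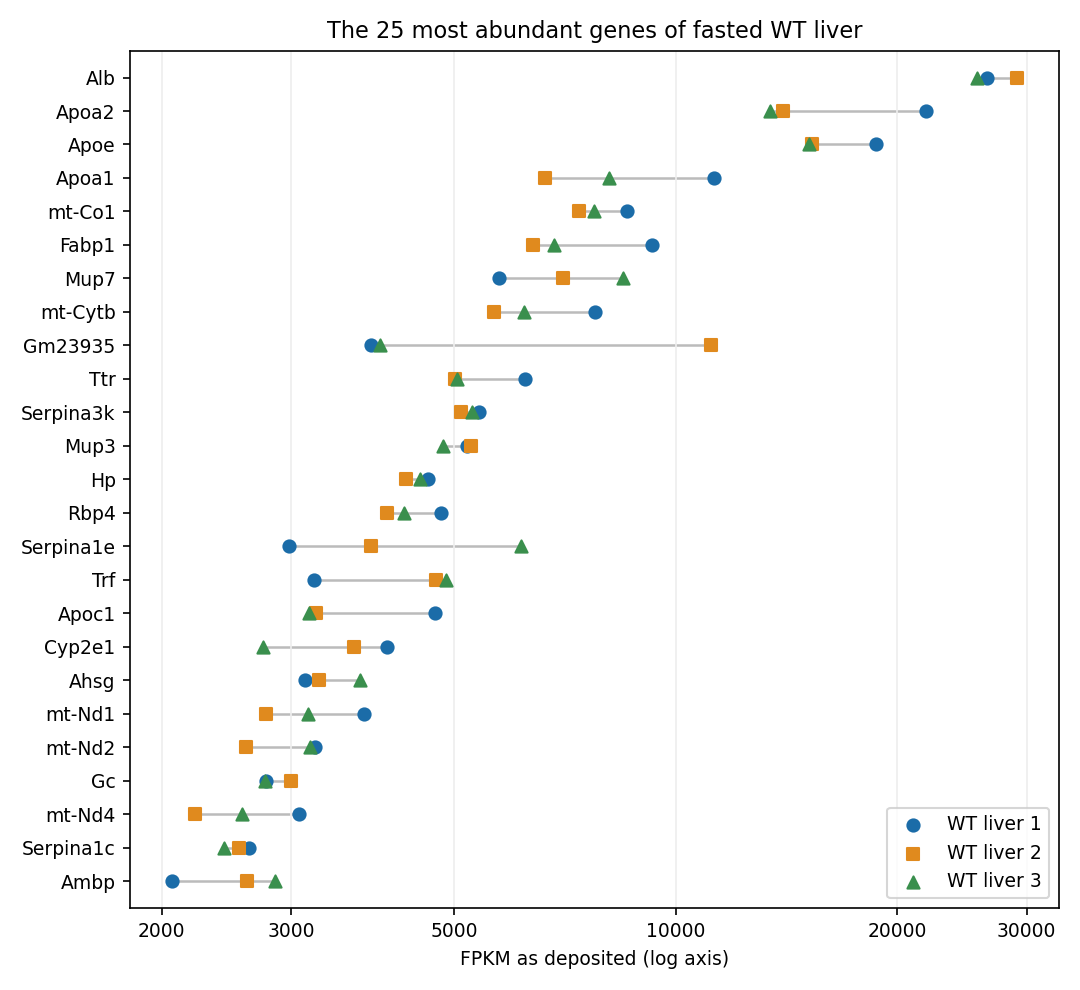
FPKM (log axis) of the 25 genes of highest mean FPKM, with 1 point for each of the 3 WT livers joined by a grey line. Alb lies between 25652.0 and 29069.8 FPKM, and Gm23935 and Serpina1e have the widest spread among the 25.

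Some of these levels cannot be assigned to a single gene with certainty. Of the 25 genes, Mup7, Trf, mt-Co1, mt-Nd4, Serpina1c and Gm23935 share at least 50% of their 50-base stretches with a transcript of another gene, from 51.1% for mt-Co1 to 86.7% for Mup7 and all of them for Gm23935. The handling of reads that match more than 1 place is not given in the sources used here. Among all included genes with a value, 541 (5.31%) share at least 50% of their 50-base stretches.

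The mitochondrial genome, whose genes are transcribed together, had levels far apart for genes of 1 complex. For cytochrome c oxidase, mt-Co1 was at 8575.93, 7388.4 and 7737.22 FPKM, whereas mt-Co2 was at 46.39, 33.34 and 37.25 and mt-Co3 at 32.94, 18.43 and 23.12. The shared 50-base stretches of mt-Co2 (100%) and mt-Co3 (99.9%) were nearly complete, against 51.1% for mt-Co1. The part of shared sequence in these levels was not tested. The reference gene Gapdh was likewise listed at only 7.05, 7.49 and 5.34 FPKM, with 24.7% of its stretches shared.

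Gm23935 was the one short non-coding gene among the 25. It is annotated as a miRNA gene of 57 bases and stood at 3856.77, 11174.2 and 3955.95 FPKM from only 4427, 13489 and 4540 counts, since FPKM divides by a very short length. WT liver 2 was 2.90 times the lowest liver. Its annotated bases in GRCm38 are shown because 3 genes carry the identical sequence, so that reads cannot separate them. They are Gm23935 (chr16:11144125-11144181, plus strand), Gm24270 (chr9:56223715-56223771, minus strand) and Gm24245 (chr4:139338304-139338360, plus strand), and 73.7% of the bases are G or C.
Gm23935, Gm24270 and Gm24245: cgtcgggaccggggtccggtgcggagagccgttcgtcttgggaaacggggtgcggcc
Gm24270 had 63, 235 and 41 counts and was also highest in WT liver 2, whereas Gm24245 had 1, 0 and 0. Lars2 and Rn7sk, taken from a list of RNA signs, were highest in the same liver. Lars2, a mitochondrial leucyl-tRNA synthetase gene, stood at 10.19, 29.58 and 9.41 FPKM, and Rn7sk, the 7SK RNA that restrains transcription elongation, had 24, 75 and 46 counts. Rpph1 of this list had 1, 31 and 3 counts. Its 2 remaining included genes went another way and were highest in WT liver 1. Malat1 stood at 28.10, 22.65 and 16.20 FPKM, and Neat1 at 35.36, 18.78 and 15.43. Together the 58 miRNA genes included took 0.946, 2.68 and 0.962% of summed FPKM, and only 0.0256, 0.0670 and 0.0249% of counts. The part of the ribosomal RNA share in these values was not tested.

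By counts rather than FPKM, long transcripts gained rank. Alb took 6.34% ± 0.418 of all counts and Apoe 3.51% ± 0.430 (SD, n = 3). Trf came next with 1.42%, and C3, the central complement component, entered the first 10 with 1002.92, 1872.25 and 1453.63 FPKM. Apoa2, whose exons cover 537 bases, fell from the second place by FPKM to the seventh by counts.

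The 10 genes of highest level in each liver held 26.6, 24.8 and 23.4% of summed FPKM, and the 100 highest held 55.2% ± 0.733 (SD, n = 3). Fewer than 100 genes made up 50% of the total, namely 63, 66 and 72 genes by FPKM, whereas 176, 175 and 181 genes were needed by counts. Only 54 genes had a mean of at least 1000 FPKM, and they held 47.2% of the total. At the other end, 6931 genes (68.0% of those included) lay between 1 and 10 FPKM and held 5.79%. Protein-coding genes numbered 9048 and took 95.03, 93.42 and 95.03% of summed FPKM. The remainder included 396 processed pseudogenes and 163 lincRNA genes.

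Genes of secreted plasma proteins held 38.5, 38.1 and 39.1% of summed FPKM (38.6% ± 0.512, SD, n = 3), the steadiest of the 3 main classes relative to its size. This class joined 166 genes, of which 153 met the limit. Within it the parts were less even than the sum. The apolipoproteins took 14.1, 10.6 and 10.6%, highest in WT liver 1, while the major urinary proteins (Mup genes, pheromone carriers that male mice secrete from the liver into urine) took 3.75, 4.24 and 5.53%, highest in WT liver 3. The plasma carriers, headed by albumin, took 13.7, 15.5 and 14.9%.

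The 58 P450 genes included held 2.92, 3.11 and 2.68% of summed FPKM (2.90% ± 0.217), and 2.90% of counts. Cyp2e1 alone gave 0.889, 0.840 and 0.622% of summed FPKM. Behind it stood Cyp4a14, a fatty acid omega-hydroxylase induced by fasting, at 930.23, 1368.63 and 1079.37 FPKM, its relative Cyp4a10 at 889.58, 1060.95 and 922.32, and Cyp2d26 at 944.47, 935.91 and 908.42. Cyp2d9 was still steadier, at 853, 830 and 831.09 FPKM, 1.03 times from lowest to highest. Of the 56 P450 genes with enough counts to judge, 15 (26.8%) differed at least 2-fold between livers, against 5.23% of all 8798 genes judged.

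The 16 mitochondrially encoded genes included held 6.69, 5.52 and 5.93% of summed FPKM (6.05% ± 0.597), highest in WT liver 1. Nuclear genes of oxidative phosphorylation took 2.27, 1.93 and 2.01%, and genes of ribosomal proteins took 2.02, 1.70 and 1.93%. Both of these classes had the same order of livers as the mitochondrial genes. Genes of short exonic length (57 to 2324 bases) had this order too. Their median log2 deviations from the mean of the livers were 0.09, -0.10 and 0.009. With this length trend removed, the ratio of highest to lowest liver was 1.08 for mt-Nd1 (1.36 before) and 1.10 for mt-Cytb (1.37 before). The part of length in the class shares was not tested. As shares of counts, which do not divide by length, the mitochondrial genes took 3.26% and the secreted class 31.1%.

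**Figure D2:**
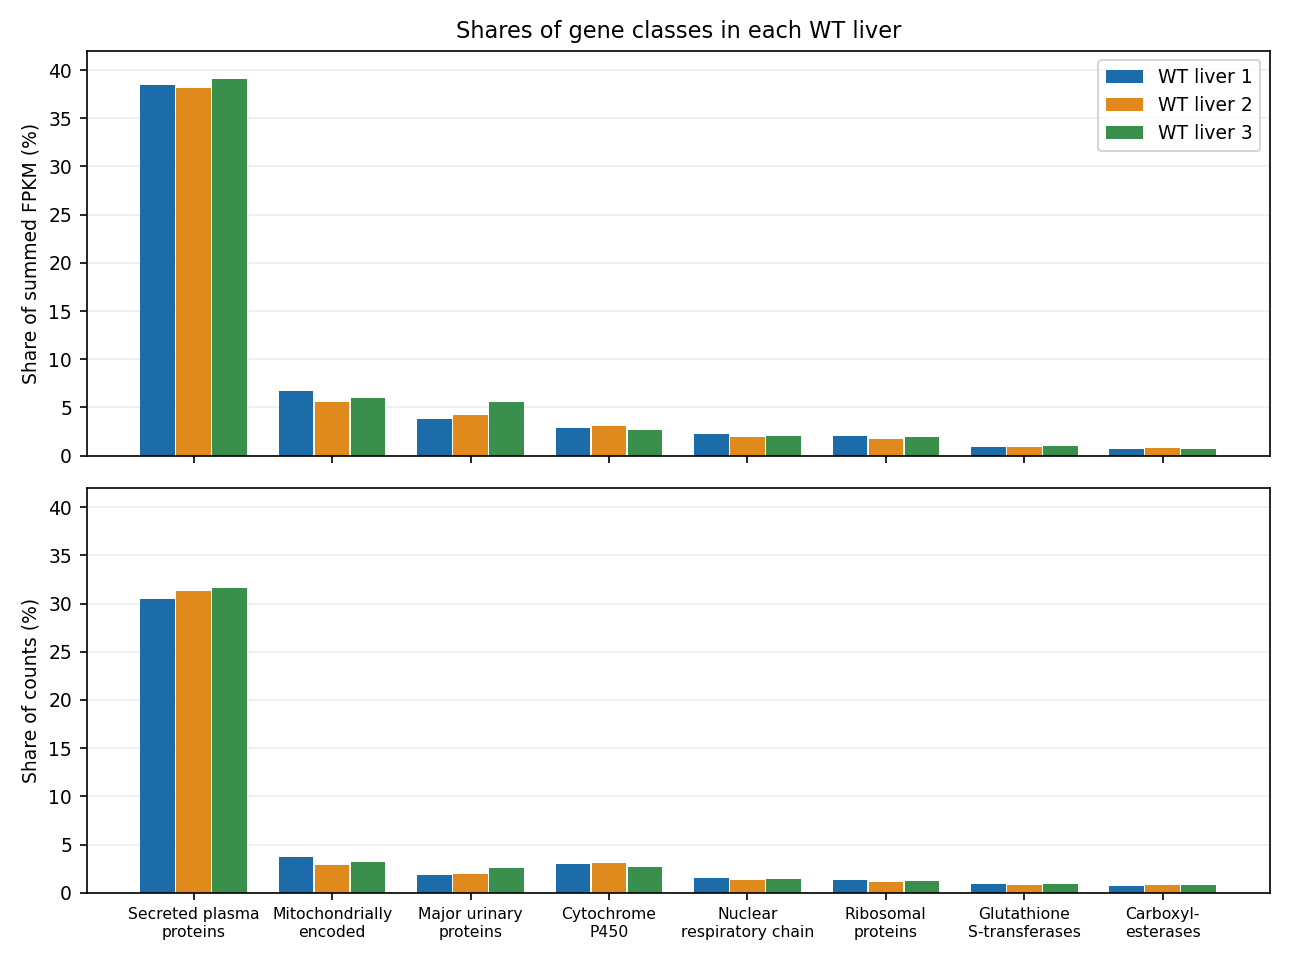
Share of summed FPKM (%, upper panel) and of counts (%, lower panel) taken by each class of genes, with 1 bar for each of the 3 WT livers. Secreted plasma proteins, which here include the Mup genes, lie between 38.1 and 39.1% of FPKM, and the mitochondrially encoded genes between 5.52 and 6.69%.

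A main enzyme of fasting metabolism was among the well-expressed genes, although no fed group was there to compare. Pck1, which commits carbon to glucose synthesis, stood at 1016.43, 970.84 and 777.73 FPKM. Asgr1, the gene deleted in the other mice of the study, stood at 496.08, 458.92 and 365.75 FPKM (a ratio of highest to lowest of 1.36), and Asgr2, its partner subunit, at 156.77, 137.82 and 136.82. Asgr1 and Pck1 were both highest in WT liver 1 and lowest in WT liver 3. This order was found in 1451 (16.5%) of the 8798 genes judged below, against 20.9% for the most frequent order.

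The spread between livers was judged as the ratio of the highest to the lowest of the 3, on counts divided by the library total. Of the included genes, 8798 had a mean count of at least 100 and were judged in this way, and the remaining 1391 were left out because counting error weighs more in them. No p-value is attached to any of these ratios, since the 3 livers are 1 group. A gene is called variable below where the ratio was at least 2, which held for 460 of the 8798 genes (5.23%). This share is the background for the number of variable genes in each list below. Most genes were far steadier, with a median ratio of 1.28 and with 7057 (80.2%) under 1.5. The median coefficient of variation over all 10189 genes was 13.8%, against 4.79% that counting error alone would give. The common biological coefficient of variation, the spread beyond counting error that edgeR estimates, was 0.205. Ratios of at least 3 were found for 150 genes, at least 5 for 59 and at least 10 for 14.

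**Figure D3:**
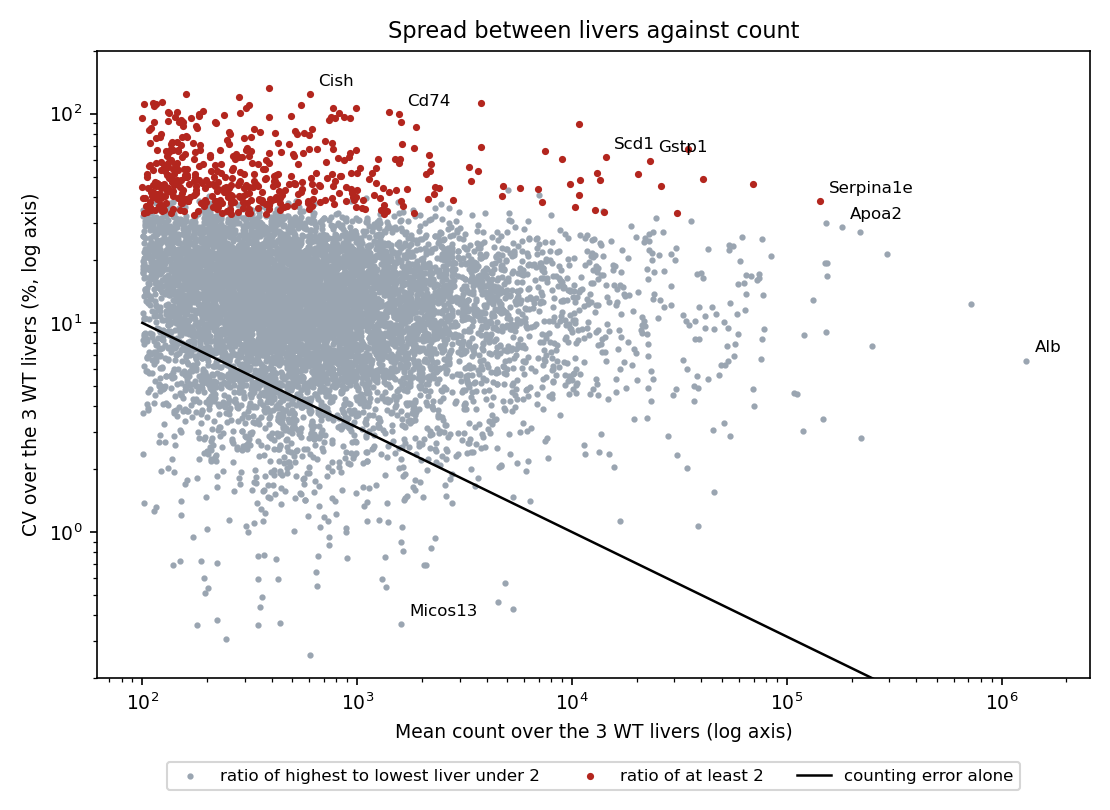
Coefficient of variation over the 3 WT livers (%, log axis) against mean count (log axis) for the 8798 genes with a mean count of at least 100, where red points are the 460 genes with a ratio of at least 2 and the line is the counting error alone. Of the 460, 142 have a mean count of at least 500, and Serpina1e is the variable gene of highest count.

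The variable genes were not spread evenly over the livers. WT liver 3 was the highest in 287 of the 460 and WT liver 1 the lowest in 270, and 238 (51.7%) had WT liver 3 highest and WT liver 1 lowest, against 20.9% of all genes judged. Without WT liver 3 the number of variable genes was 140, and without WT liver 1 it was 209. By pairs, 140 genes differed 2-fold between WT livers 1 and 2, 362 between WT livers 1 and 3 and 209 between WT livers 2 and 3. Of the 30 genes with the largest ratio, 24 were highest in WT liver 3. Variable genes were also more frequent among genes with short exonic length, at 163 (9.25%) of the 1763 shortest (57 to 2324 bases) and 41 (2.33%) of the 1760 longest (7015 to 41619 bases). Short genes lay higher in WT liver 1 (a median log2 deviation of 0.09 from the mean of the livers) and lower in WT liver 2 (-0.10). With this trend removed 434 genes were variable, 407 of them also before. In single genes the largest ratios stayed of like size with the trend removed, at 74.2 for Cyp2b9 (69.6 before) and 32.3 for Marco (31.1 before), whereas that of Fabp1 was 1.19 (1.45 before).

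Kupffer cell genes were the group of largest spread. All 15 genes of this marker list with enough counts were variable, each highest in WT liver 3 and lowest in WT liver 1, with a median ratio of 9.02 against 1.28 over all genes judged. The summed level of the 17 genes of the list was 70.27, 184.94 and 587.64 FPKM. Clec4f, a lectin receptor made in mouse liver by Kupffer cells, stood at 9.61, 20.98 and 64.72 FPKM. C1qb, a chain of the complement starter C1q, stood at 8.85, 22.96 and 79.89, and Lyz2, the macrophage lysozyme, at 7.4, 21.82 and 81.71. Marco, a scavenger receptor for bacteria and particles, was the extreme, with 31, 164 and 965 counts (0.80, 4.02 and 24.90 FPKM). Counting error is small beside this, since the exact 95% Poisson intervals of these counts run from 21.1 to 44.0, from 140 to 191 and from 905 to 1028. Marco reached the count minimum through WT liver 3. For genes of the list that met a limit in this way, the rule favours WT liver 3 as the highest. Vsig4, a complement receptor of resident macrophages, stood at 1.44, 6.52 and 23.19 FPKM, and Cd5l, a secreted macrophage protein, at 6.49, 22.82 and 72.92. WT liver 2 lay between the others in each gene named here. Without WT liver 3 the median ratio of the list was 2.86, and without WT liver 1 it was 3.20.

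Macrophage genes also filled much of the list of largest ratios. Beside the markers named, the 30 genes with the largest ratio included the immunoglobulin receptors Fcgr3 (0.46, 1.66 and 6.55 FPKM) and Fcgr4 (0.83, 2.29 and 10.04), the integrin chain Itgb2 (0.37, 0.99 and 4.21) and the colony-stimulating factor receptor Csf1r (1.32, 3.92 and 14.49). Hmox1, the haem oxygenase with which macrophages break down the haem of old red cells, stood at 3.74, 8.55 and 29.24 FPKM. Siglec1, Cd163, Laptm5, Cybb, Wfdc17, Siglece, Ctss and Slc11a1 were among the same 30 and had the same order of livers. Adgre1 was also among the 30, at 0.31, 1.02 and 4.33 FPKM. Siglec1, Cybb, Cd163, Itgb2 and Adgre1 met the FPKM limit through WT liver 3, so the rule that chose the genes favours this order for them. Fcgr3, Fcgr4, Itgb2, Siglec1, Siglece, Cybb and Adgre1 had under 100 counts in WT livers 1 and 2. They reached the count minimum through WT liver 3, which favours the same liver as the highest. The same holds for Wfdc17 (47, 115 and 389 counts) and Slc11a1 (44, 116 and 347). Neutrophil markers were low. Mmp8 and Ly6g were at 0 counts in all 3 livers, and S100a9 was the only neutrophil marker to meet the limit.

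Genes of antigen presentation by class II major histocompatibility molecules were also highest in WT liver 3. All 4 with enough counts were variable, and Cd74, the invariant chain that escorts class II molecules, stood at 14.82, 24.35 and 98.03 FPKM. H2-Ab1, a class II chain, stood at 5.20, 6.34 and 21. In both genes WT liver 3 stood apart from the others, and without WT liver 3 the median ratio fell from 4.06 to 1.26.

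Sinusoidal endothelial genes had a smaller spread in the same direction. Of the 17 judged, 12 were variable, all 17 were highest in WT liver 3 and 16 were lowest in WT liver 1. The sum over the list was 70.42, 95.12 and 159.59 FPKM. Clec4g, a lectin of these cells, stood at 10.69, 17.86 and 32.78 FPKM, and Dnase1l3, a secreted DNase, at 3.09, 6.02 and 12.80. Stab1 and Stab2, scavenger receptors that define the same cells, differed less, with ratios of 1.37 and 1.84. The median ratio of the list was 2.40, and 1.43 without WT liver 3.

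Of the 12 stellate cell genes judged, 5 were variable and 11 were highest in WT liver 3. The sum over the list was 41.53, 51.61 and 82.73 FPKM. Rgs5, a marker of pericytes, stood at 1.2, 2.91 and 4.95 FPKM, and Lrat, which esterifies retinol for storage, at 1.34, 2.56 and 3.22. Dcn, a matrix proteoglycan, had a ratio of 1.65, at 7.95, 9.47 and 13.15 FPKM. Immunoglobulin genes followed another order, with Igkc, the kappa light chain constant region, at 27.35, 16.24 and 33.42 FPKM and the lowest value in WT liver 2. Over the immunoglobulin list the median ratio was 2.12, and 1.41 without WT liver 2. Markers of T cells were below the limit. The 5 haemoglobin and haem synthesis genes of red cells were not variable, and were lowest in WT liver 1 (a sum of 170.91, 273.61 and 263.94 FPKM).

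**Figure D4:**
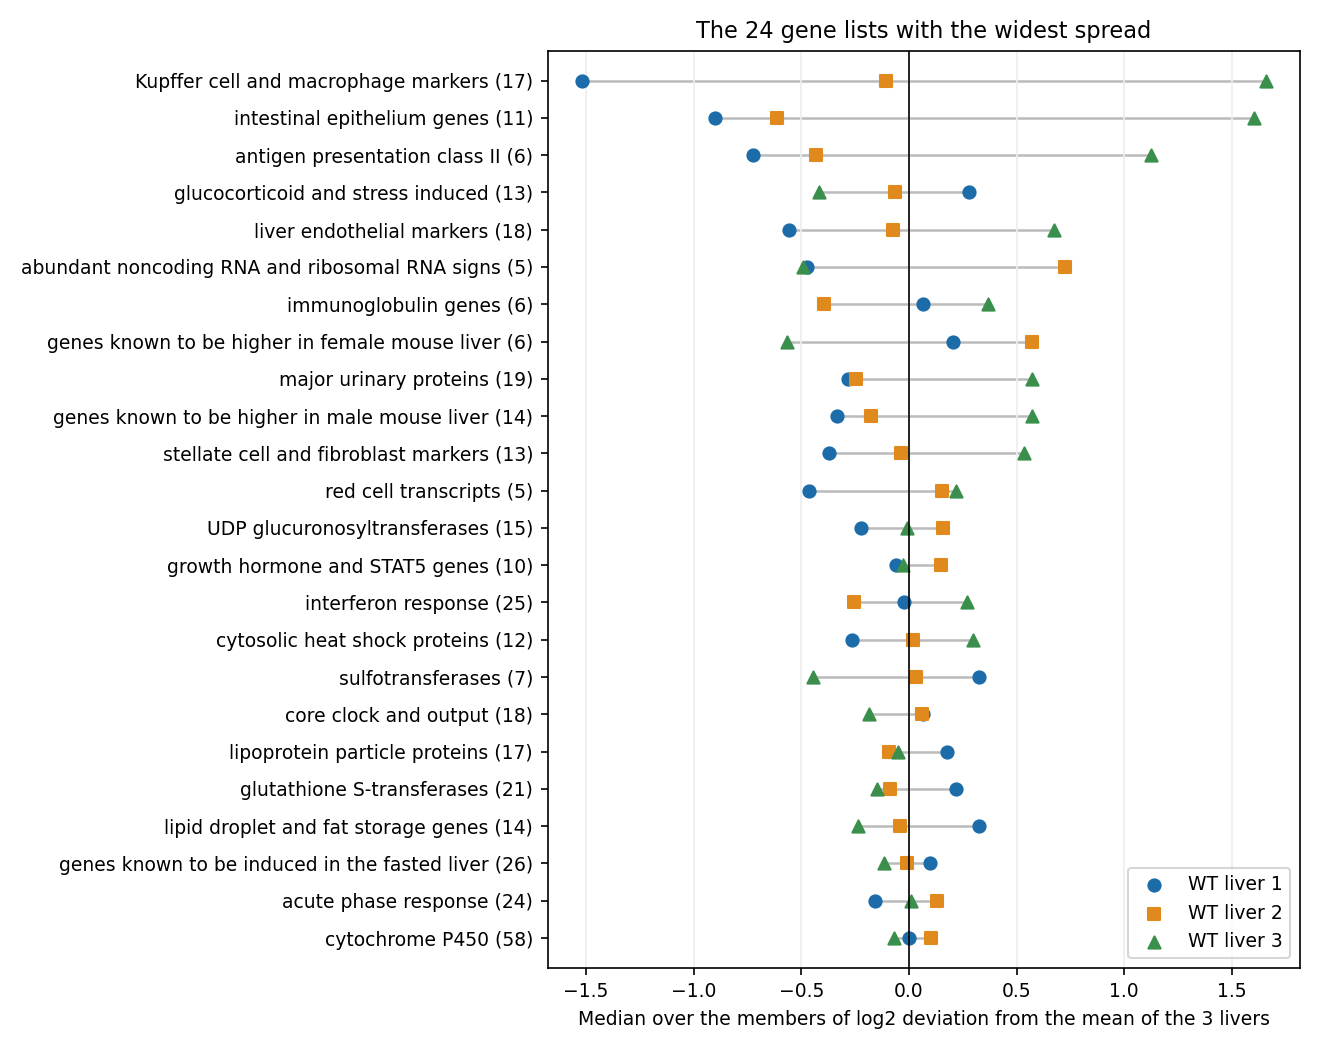
Median over each list of the log2 deviation of a gene in each WT liver from the mean of the 3, for the 24 lists of widest spread, sorted by the median ratio of highest to lowest liver (number of included genes in parentheses). The Kupffer cell list has a median ratio of 9.02; the lists of intestinal, STAT5 and lipid droplet genes were added after values were seen, and their place in the order follows from that choice.

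Several genes of intestinal epithelium were also highest in WT liver 3. They were gathered in a list that was added after values were seen, so its counts and its median follow from that choice and are a description. Of its 21 genes 11 met the limit, and 5 of the 6 with enough counts were variable. Defa24 (61, 99 and 414 counts), Lyz1 (64, 100 and 387) and Reg3b reached the mean count of 100 through WT liver 3. So did the alpha-defensin genes Defa21 (53, 75 and 298) and Defa22 (53, 57 and 285). The count minimum therefore favours WT liver 3 as the highest liver for these genes. Defa24, an alpha-defensin of Paneth cells, stood at 7.23, 11.16 and 49.07 FPKM. Lyz1, the Paneth cell lysozyme, stood at 2.52, 3.74 and 15.22, and Reg3b, an antibacterial lectin, at 2.09, 1.86 and 16.87 from 48, 45 and 388 counts. The shared part of the 50-base stretches was 28.1% for Defa24, 72.9% for Defa21 and 74.9% for Defa22. It was 16.1% for Lyz1 and 15.4% for Lyz2, which had the same order of livers. The values of these single genes are therefore uncertain, and the part of shared sequence in them was not tested. Zg16, a goblet cell lectin under the count minimum, stood at 0.91, 1.39 and 7.82 FPKM. Fabp2, the fatty acid-binding protein named for the intestine, went another way, at 161.79, 113.18 and 124.61. Chga, an enteroendocrine granule gene below the limit, had 0, 0 and 12 counts. The median ratio of the list was 5.84, and 1.39 without WT liver 3. Of cholangiocyte markers, Epcam stood at 0.38, 1.08 and 2.81 FPKM and Krt19 at 0.86, 1.12 and 4.12, both under the count minimum. Epcam and Krt19 met the FPKM limit through WT liver 3, which favours it as their highest liver. Spp1 did not share their order, at 19.92, 18.28 and 18.63. Whether the macrophage, class II and epithelial genes have 1 source in WT liver 3 was not tested.

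Genes that differ between male and female liver varied within these males. Of the 14 male-biased genes, 7 were variable, all highest in WT liver 3, and of the 6 female-biased genes judged, 3 were variable, all lowest in WT liver 3. Selenbp2, a selenium-binding protein, stood at 123.70, 101.28 and 474.61 FPKM. Gstp1, a glutathione transferase, stood at 419.78, 544.87 and 1231.77, and Elovl3, which elongates fatty acids, at 24.82, 23.91 and 63.60. Not every male-biased gene followed. Cyp2d9 was steady, as given above, and Slco1a1, an organic anion transporter, stood at 26.74, 31 and 29.49. The median ratio of the male-biased list was 2.06, and 1.14 without WT liver 3. The Y-linked genes Eif2s3y (10.72, 9.32 and 8.30 FPKM) and Ddx3y (4.48, 5.39 and 4.32) were present in all 3 livers, and Xist, the RNA of the inactive X chromosome, had 5, 1 and 2 counts.

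The female-biased gene Cyp2b9 had the largest ratio of all genes judged, 69.6. Its counts were 241, 659 and 9, with exact 95% Poisson intervals from 212 to 273, from 610 to 711 and from 4.12 to 17.1, and its level was 6.38, 16.59 and 0.24 FPKM. Cyp2b9 is a P450 that female mouse liver makes at a higher level than male liver. Acot3, a peroxisomal acyl-CoA thioesterase, was low in the same liver, at 10.78, 12.54 and 1.92 FPKM. The median ratio of the female-biased list was 2.11, and 1.34 without WT liver 3.

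The Mup genes, which male liver makes at high level, varied as a family. Of 18 judged, 10 were variable and all 10 were highest in WT liver 3. Mup20, whose product darcin is a male pheromone, stood at 982.3, 1039.83 and 2083.94 FPKM, and Mup16 at 34.30, 55.95 and 176.80. Mup3 went against this pattern, at 5197.31, 5261.15 and 4831.11 FPKM. The Mup genes are near copies, with 50.5% of 50-base stretches shared for Mup20 and 91.7% for Mup16, so the value of a single Mup gene is uncertain, whereas the family sum of 17101.2, 18438.1 and 24367.8 FPKM is less so. Over the family the median ratio was 2.07, and 1.18 without WT liver 3.

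Growth hormone reaches male liver in pulses, and each pulse activates the transcription factor STAT5. A list of its signaling and target genes was added after values were seen, and 5 of 10 were variable. Cish, a feedback inhibitor of cytokine receptors that STAT5 induces within minutes, had 277, 1466 and 61 counts (2.14, 10.78 and 0.47 FPKM), with exact 95% Poisson intervals from 245 to 312, from 1392 to 1543 and from 46.7 to 78.4. Bcl6, a repressor that opposes STAT5 at liver genes, had the reverse order, at 6.67, 2.73 and 12.43 FPKM. Myc, which promotes growth, followed Cish at 2.45, 4.71 and 0.93, and Socs3, a further feedback inhibitor, at 3.83, 6.17 and 3.04. Onecut1, a hepatocyte transcription factor, stood at 0.37, 3.49 and 1.53 FPKM, with 52.3% of its 50-base stretches shared with other genes. Onecut1 (31, 304 and 127 counts) met the FPKM limit and the count minimum through WT liver 2. Myc (134, 271 and 51 counts) reached the count minimum through the same liver. The rule thus favours WT liver 2 as the highest for both. Other genes of the list were steady. Igf1, the hormone that growth hormone induces in liver, stood at 48.29, 40.00 and 41.49 FPKM, Igfals, which carries it in serum, at 65.62, 72.70 and 69.11, and the receptor gene Ghr at 38.78, 42.42 and 37.62. Growth hormone itself was not measured in these mice.

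The promoter of Cish is shown because its level spanned 22.8-fold over the livers and it holds paired STAT motifs. The motif searched was TTCNNNGAA, a palindrome that reads alike on both strands, in the 250 bases before and 50 after the RefSeq start of GRCm38.p6. It was found in 482 (6.38%) of the 7552 included genes with a promoter in the table, and in 4 of 9 genes of the STAT5 list (Bcl6, Cish, Igfals and Socs3). These shares are a description, since the table covers 7552 of 10188 symbols. The Cish window is chr9:107296409-107296708 on the plus strand, and the capitals mark the motifs.
Cish: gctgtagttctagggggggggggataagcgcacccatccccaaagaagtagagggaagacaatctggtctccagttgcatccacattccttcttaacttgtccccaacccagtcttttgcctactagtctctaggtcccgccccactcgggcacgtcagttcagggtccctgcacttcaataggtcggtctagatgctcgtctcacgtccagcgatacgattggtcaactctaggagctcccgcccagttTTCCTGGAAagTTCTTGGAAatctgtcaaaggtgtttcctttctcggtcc
The letters alone do not show binding, and Igfals, which holds the motif too, was steady.

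Clock genes drive daily rhythms in liver, and 4 of 18 were variable. Dbp, an output transcription factor, stood at 52.50, 25.51 and 12.21 FPKM, Ciart, a repressor within the clock, at 29.32, 14.51 and 5.58, and Nr1d1, the nuclear receptor REV-ERB alpha, at 25.01, 12.77 and 6.23. In each of them WT liver 1 was highest and WT liver 3 lowest. Cry1, a repressor that peaks later in the cycle, had the opposite order, at 2.20, 4.21 and 6.66 FPKM. Other clock genes barely differed, among them Per2 (14.34, 12.22 and 15.10 FPKM) and Cry2 (8.8, 9.41 and 8.41). The hour at which each liver was taken is not given in the sources used here, and the part of it in these values was not tested.

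The promoter of Ciart is shown because it had the largest ratio of the clock list, 5.25, and holds several E-boxes. The motif searched was CACGTG, the site bound by CLOCK and BMAL1, a palindrome that reads alike on both strands. It was found in 804 (10.6%) of the 7552 promoters and in 4 of 15 of the clock list (Ciart, Cry1, Per1 and Tef). The Ciart window is chr3:95882179-95882478 on the minus strand of GRCm38.p6, and the capitals mark 3 motifs.
Ciart: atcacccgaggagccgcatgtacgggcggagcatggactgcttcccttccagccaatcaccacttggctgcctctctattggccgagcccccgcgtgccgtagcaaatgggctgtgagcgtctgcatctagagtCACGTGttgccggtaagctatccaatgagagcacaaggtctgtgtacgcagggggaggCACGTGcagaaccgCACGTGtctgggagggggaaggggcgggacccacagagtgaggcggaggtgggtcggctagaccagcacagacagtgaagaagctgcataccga
Cry1, with the same motif, had the opposite order of livers.

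Genes that answer glucocorticoids and stress were widely spread, with 7 of 12 variable. Rgs16, which shortens signals of G protein-coupled receptors, had the second largest ratio of all genes judged, 32.9, with 658, 170 and 20 counts (13.97, 3.43 and 0.42 FPKM). Rgs16 reached the count minimum through WT liver 1, which favours that liver as its highest. Mt2 and Mt1, the metallothioneins that bind zinc, stood at 42.73, 25.86 and 9.80 FPKM and at 49.90, 31.72 and 16.98. Gadd45g, a stress-induced growth regulator, stood at 19.14, 34.14 and 5.97. The order was not shared by all, since Ddit4, an inhibitor of mTOR signaling, stood at 5.72, 4.41 and 11.83 FPKM. The median ratio of the list was 2.53, and 1.496 without WT liver 3.

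Of 12 heat shock genes judged, 4 were variable, all highest in WT liver 3. Hspb1, a small chaperone, stood at 20.66, 19.14 and 92.64 FPKM, and Hsp90aa1, the inducible form of HSP90, at 23.93, 32.83 and 67.39. Dnaja1, a co-chaperone, was steady, at 17.89, 19.73 and 18.60. Chaperones and other stress genes of the endoplasmic reticulum were near the background of 5.23%, with 1 variable gene of 18 (5.56%), Sdf2l1, at 51.85, 48.75 and 100.10 FPKM.

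Genes of lipid synthesis and storage held a few variable genes. Of 22 lipogenic genes judged, 2 (9.09%) were variable, which is near the background of 5.23%. The median ratio of the lipogenic list was 1.35, with 15 genes highest in WT liver 1 and 16 lowest in WT liver 3. The sum over the list was 1861.21, 1586.35 and 1257.12 FPKM. Thrsp, which promotes fatty acid synthesis, stood at 317.43, 205.31 and 75.01 FPKM, and Scd1, the main liver stearoyl-CoA desaturase, at 238.36, 128.21 and 63.03. Both were highest in WT liver 1 and lowest in WT liver 3. Fasn, the fatty acid synthase, stood at 59.87, 50.40 and 46.61, and Srebf1, the transcription factor that drives the pathway, at 66.03, 60.76 and 47.88. Of 12 lipid droplet genes judged, a list added after values were seen, 4 were variable. Plin4, a droplet coat protein, stood at 8.65, 3.53 and 1.59 FPKM, and Fitm1, which takes part in droplet formation, at 130.36, 65.45 and 41.69. Cidea, a droplet fusion protein below the count minimum, had 182, 6 and 0 counts. The main coat proteins were steady, with Plin2 at 86.68, 76.74 and 88.67 FPKM and Plin5 at 38.09, 38.26 and 38.70. No gene of the 20 of cholesterol synthesis was variable.

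Variable acute phase genes were mostly highest in WT liver 2. Of 23 judged, 7 were variable and 6 of these were highest in WT liver 2. Saa1, a serum amyloid protein that inflammation induces, stood at 13.87, 57.03 and 23.85 FPKM, and Saa2 at 3.65, 19.13 and 7.38. Orm2, an orosomucoid, stood at 10.06, 21.26 and 16.85. Of complement genes, 3 of 22 were variable, each highest in WT liver 3 and lowest in WT liver 1, among them C9, part of the membrane attack complex, at 51.50, 95.05 and 124.25 FPKM. None of the 18 coagulation genes was variable.

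Among the secreted hormones, Igfbp2, a carrier of insulin-like growth factors, stood at 158.65, 269.22 and 435.31 FPKM. Enho, the gene of adropin, stood at 9.47, 15.33 and 46.81. Hamp2, a relative of the iron hormone hepcidin, stood at 20.44, 9.64 and 4.34, whereas Hamp, hepcidin itself, was steady at 2407.45, 2241.15 and 2123.7. Of the 17 apolipoprotein genes, 2 (11.8%) were variable, against a background of 5.23%. Apom, which carries sphingosine-1-phosphate, stood at 57.26, 135.83 and 153.12 FPKM, and Pltp, the phospholipid transfer protein counted with them, at 28.30, 6.58 and 17.80.

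Variable P450 genes did not share 1 order of livers. Of the 15, Cyp2b9 included, 7 were highest in WT liver 1, 5 in WT liver 2 and 3 in WT liver 3. Cyp4a31, a relative of the fasting-induced Cyp4a10, stood at 5.19, 11.25 and 25.24 FPKM. Cyp2c38 stood at 31.81, 21.72 and 9.04, and Cyp21a1, the steroid 21-hydroxylase of the adrenal gland, at 0.90, 5.03 and 3.25. Cyp21a1 (39, 228 and 140 counts) reached the count minimum through WT liver 2. Of the 26 genes of the fasting response, 22 were judged and 4 were variable. They included Lpin1, a phosphatidate phosphatase, at 16.16, 11.03 and 4.84 FPKM, and Fgf21, a hormone of fasting below the count minimum, stood at 4.18, 1.94 and 1.72.

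**Figure D5:**
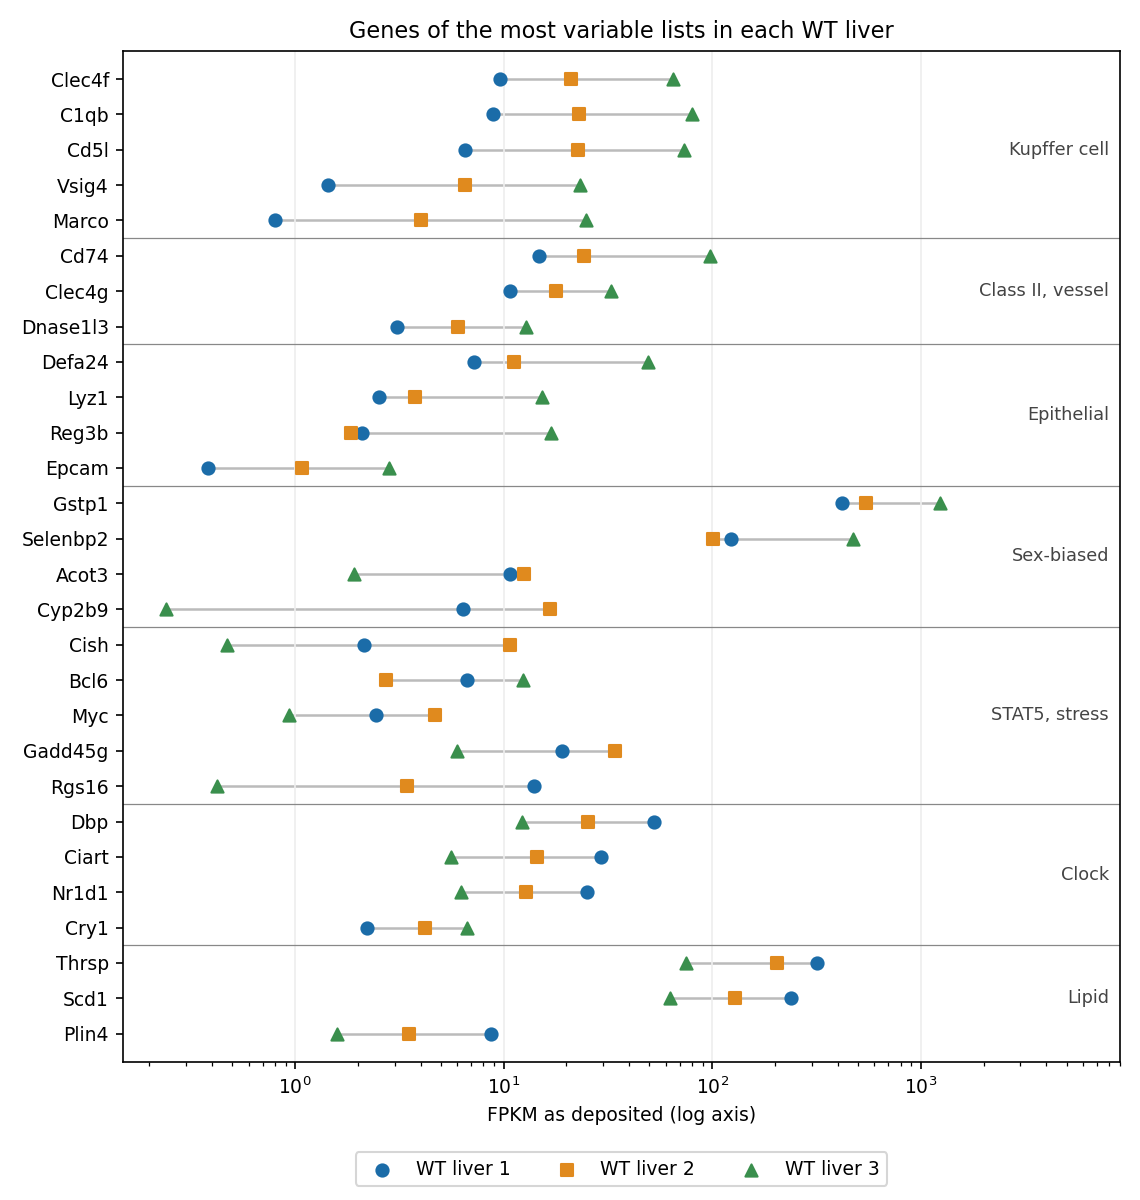
FPKM (log axis) of selected genes of the lists described, with 1 point for each WT liver joined by a grey line. Macrophage, class II and intestinal genes are highest in WT liver 3, Cish is highest in WT liver 2, and Dbp, Ciart, Thrsp and Scd1 are highest in WT liver 1.

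A few of the largest ratios belonged to genes outside the lists. Gm4316, a lincRNA gene, stood at 8.15, 4.99 and 0.51 FPKM. Obp2a, an odorant-binding protein gene, stood at 2.20, 17.58 and 10.08, and Clic3, a chloride channel family gene, at 1.13, 4.67 and 10.16. Moxd1, related to dopamine beta-hydroxylase, stood at 2.52, 3.60 and 19.10. Obp2a (33, 277 and 151 counts) reached the count minimum through WT liver 2, and Clic3 (23, 100 and 207) through WT liver 3. Each of these 4 genes had its own order of livers, apart from Clic3 and Moxd1, which shared that of the macrophage genes.

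Several groups of metabolic and housekeeping genes held no variable gene. None of the genes judged was variable among 17 of gluconeogenesis, 8 of the urea cycle, 73 of nuclear oxidative phosphorylation, 79 ribosomal proteins, 37 of the proteasome, 12 carboxylesterases and 13 pericentral markers. With 5.23% of all genes judged variable, 0 is near the background for the short lists among these, and for those of coagulation and cholesterol synthesis. Pericentral genes are expressed around the central vein of the lobule, and of these Cyp2a5 differed most, at 547.65, 483.73 and 299.46 FPKM. The 12 periportal genes, expressed at the other end of the lobule, held 1 variable gene (8.33%), Ctsc, at 4.63, 9.18 and 11.07. Cps1, which starts the urea cycle, stood at 211.14, 400.61 and 322.73 FPKM, a ratio of 1.90, just under the limit of 2.

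The steadiest protein-coding gene with a mean count of at least 1000 was Micos13, a subunit of the complex that shapes mitochondrial cristae, at 66.82, 66.36 and 66.45 FPKM (a ratio of 1.01). Rps3, a ribosomal protein, stood at 58.39, 57.89 and 58.11, and Glyat, which conjugates glycine in mitochondria, at 46.12, 45.88 and 46.31. Smim14, Aldh9a1, Usf2, Pmpca, Anapc5, Dazap2 and Inf2 completed the 10 steadiest. Their coefficients of variation, from 0.364 to 0.836%, were under those that counting alone gives, from 1.37 to 2.77%, and they were chosen as the smallest among many. Of genes often used for normalization, Pgk1 had a ratio of 1.03 and Polr2a 1.10. Actb stood at 203.27, 167.46 and 223.34 FPKM, and Gusb, a lysosomal glucuronidase, was variable at 3.11, 4.63 and 6.36.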

How the data were processed

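RNA-seq of total RNA from 3 WT livers was used, and the 3 Asgr1-/- libraries were not. The deposited table gives raw counts per Ensembl gene and FPKM, which the authors computed, per the file headers, on GRCm38. These FPKM equal counts divided by exonic size and library total within 0.005. The submitters' processing notes name DESeq2 1.6.3. No source used here names the aligner, the counter, the strand setting or the read length. Annotation came from GENCODE M21 and RefSeq, and 7552 included genes matched a promoter. Genes with a mean WT FPKM of at least 1 were kept. Ratios and coefficients of variation used counts divided by the library total, for genes with a mean count of at least 100, and no hypothesis test was run. edgeR 4.0.16 estimated dispersion with an intercept only, with DESeq2 1.42.0 as an alternative, in R 4.3.3. Python 3.11.15, numpy 2.4.6 and pandas 2.3.3 did the rest. Dispersion estimation was tested on simulated data. Shared sequence was the percent of 50-base stretches found, on the same strand, in a transcript of another gene. Poisson intervals cover counting error only. Reads carried no stated molecular identifiers. The members and lists were chosen with earlier results of these data known, and 3 lists (STAT5, lipid droplet, intestine) were added after values were seen. Named were the 25 genes of highest FPKM, the 10 of highest counts, the 30 of largest ratio, the 10 steadiest, and up to 5 by level and 4 by ratio per list. Steady genes named as contrasts, other genes outside this rule, and motifs were chosen after values were seen. Some genes that this rule names are not reported here.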

Additional observations from a re-analysis of the deposited data

How the results depend on the processing

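The 10 and 100 highest genes held 18.1% and 42.7% as shares of counts, and the 100 highest held 53.5% without mitochondrially encoded genes. The secreted class held 31.1% of counts, 41.0% of FPKM without mitochondrially encoded genes and 29.0% when taken from the annotation of the extracellular region. Mitochondrial genes held 3.26% and ribosomal proteins 1.21% of counts. A mean FPKM of at least 0.1, 5 or 10 gave 16463, 5098 or 3258 genes. Variable genes numbered 997 with no minimum on the mean count, 796 at 20 and 142 at 500, and 1741, 150 and 93 at ratios of 1.5, 3 and 4. Leaving out 1 liver gave 140 to 362 variable genes (209 without WT liver 1, 362 without WT liver 2 and 140 without WT liver 3), and 1 to 5 lists of 50 with a median ratio of at least 2, against 10. The list medians moved by more than the limit in 3, 1 and 8 of 50 lists without WT livers 1, 2 and 3, and in 0 with TMM factors. TMM or size factors gave 444 variable genes. Removing the trend with exonic size gave 434 and leaving out cell type markers 422, both chosen after seeing the data. The median gene-wise biological coefficient of variation in DESeq2 was 0.122. The cause of these shifts was not tested beyond what each setting leaves out. No paired analysis was possible because only 1 group is described. At 20134006 to 21178121 counts per liver, 1391 genes fell under the count minimum and were not judged.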
